A study of Mus musculus with 4 samples.

Results

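The genes described here encode the proteins of the cytosolic ribosome. They were chosen by symbol alone: symbols that start with Rpl or Rps followed by a digit, together with Rplp0, Rplp1, Rplp2 and Rpsa, and without symbols containing -ps, the Rps6k kinases and Rps19bp1. The rule found 90 of the 18471 genes in the table. Of these, 77 encode proteins of the ribosome itself, called core genes below, and 13 are paralogs or copies of a core gene. After the filter on low counts 87 were tested; Rpl3l, Rps3a2 and Rps3a3 were not. RNA was sequenced from the retinas of single mouse embryos at embryonic day 19, 2 labelled wild-type and 2 labelled Foxn3KO. The Foxn3KO embryos are Foxn3-/- for the allele C57BL/6NJ-Foxn3em1(IMPC)Bay/Mmnc. This germline allele lacks exon 3 of Foxn3, which encodes a forkhead transcription factor, and it is not limited to a cell type. The labels name no treatment in either group.

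A ribosome is built from a small subunit, which reads the message, and a large subunit, which joins the amino acids. Each holds ribosomal RNA and a fixed set of proteins that are made in matching amounts, and the messages of these proteins are among the most abundant in growing tissue. Most begin with a run of pyrimidines at the cap, the TOP sequence, through which mTORC1 and the RNA-binding protein Larp1 set how strongly they are translated. Translation was not measured here, so the values below are amounts of RNA.

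The start sites of some of the genes the results turn on are shown first, so that the start-site features counted below, which the symbol rule did not use, can be seen in them. The windows run from 70 bases before to 30 bases after the outermost annotated start and are taken from RefSeq on build GRCm38.p6. Capitals mark an ETS factor motif (CCGGAAG), an Sp1 motif (GGGCGG), a YY1 motif (AAGATGG) or a TATA motif (TATAAA) on either strand, or a run of at least 8 C or T letters starting with C on the strand of the gene, from 20 bases before the start onwards.
Rpl41 (chr10:128549139-128549238, minus strand): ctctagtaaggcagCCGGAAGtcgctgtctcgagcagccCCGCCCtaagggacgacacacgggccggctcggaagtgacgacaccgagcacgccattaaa
Rps24 (chr14:24490608-24490707, plus strand): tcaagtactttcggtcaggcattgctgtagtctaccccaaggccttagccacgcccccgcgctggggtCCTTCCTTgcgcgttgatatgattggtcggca
Rpl12 (chr2:32961642-32961741, plus strand): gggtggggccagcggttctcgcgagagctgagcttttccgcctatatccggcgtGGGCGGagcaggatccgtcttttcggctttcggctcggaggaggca
Rplp0 (chr5:115559397-115559496, plus strand): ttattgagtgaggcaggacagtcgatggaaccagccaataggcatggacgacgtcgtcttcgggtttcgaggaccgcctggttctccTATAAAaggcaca
Rps19 (chr7:24884522-24884621, plus strand): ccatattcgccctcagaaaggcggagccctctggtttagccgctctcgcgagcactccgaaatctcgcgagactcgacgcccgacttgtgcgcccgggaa
Rpl4 (chr9:64173317-64173416, plus strand): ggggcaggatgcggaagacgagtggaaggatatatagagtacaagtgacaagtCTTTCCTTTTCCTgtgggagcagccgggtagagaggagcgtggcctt
Rpl41 and Rps24 were among the 9 genes past the threshold, in opposite directions, and so were Rpl12, Rplp0 and Rps19; Rpl4 was among the genes with the highest level. Only Rps24 and Rpl4 of these 6 hold the pyrimidine run inside the window printed. Runs shorter than 8 letters, or at a start other than the outermost, are not marked, so an unmarked window does not show that a gene lacks a TOP sequence. In all, 57 core genes had an entry. The run lay between 20 bases before and 50 bases after the start in 43 of them (75.4%), against 19.9% of the outermost starts of 27025 genes, and on the other strand in 8.77% against 22.7%. Over the whole 300 bases of an entry, the ETS motif was found in 40.4% of the core genes and in 9.14% of all. For the Sp1 motif the shares were 59.6% and 35.9%, for the YY1 motif 15.8% and 6.46%, and for the TATA motif 10.5% and 14.2%. These are matches of letters and not measured binding sites.

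The libraries held 22543531 to 29360129 counts. Foxn3, the targeted gene, reached 2421 and 2712 counts under the wild-type label, against 4181 and 3219 under the Foxn3KO label. Its gene-level count cannot show the loss of a single exon, so the higher count under the Foxn3KO label cannot check that label. Directions below rest on the labels. Wild-type replicate 1 stood apart: it had 83073 counts of Xist and 0 of Ddx3y, against 9 to 19 of Xist and 1780 to 2317 of Ddx3y in the other 3. All 11 progenitor and all 16 neuron markers of the retina were in the table and above 0 in each library. Progenitor markers summed to 7121 and 7441 CPM (counts scaled to library size) under the wild-type label against 6801 and 6833 CPM under the Foxn3KO label, with 3 called higher and 3 lower. Neuron markers summed to 2222 and 2329 CPM against 2365 and 2355 CPM, with 4 called higher and 3 lower. Lens transcripts differed most among the marker lists of other tissues, with 13 of 18 listed genes in the table, of which Crygs was at 0 in at least 1 library. Summed over the tested lens markers, the level was 9.32 and 80.2 CPM under the wild-type label against 366 and 367 CPM under the Foxn3KO label, and 11 of 12 tested markers were called higher. Pigment epithelium markers summed to 90.2 and 119 CPM against 74.8 and 74.7 CPM, with 4 of 9 tested called lower. Vessel and mesenchyme markers summed to 401 and 420 CPM against 402 and 396 CPM, with 3 of 12 tested called higher and 0 lower. Microglia markers summed to 24.5 and 24.1 CPM against 28.7 and 30.1 CPM, with 0 of 10 called in either direction. Marker calls are at an edgeR adjusted p under 0.05, by which 12.3% of all tested genes were higher and 9.66% lower. The part of sex and of these cell types in the results below was not tested. In whole retina, fewer cells of a type and less RNA per cell cannot be told apart. The 2 libraries of a genotype come from single embryos, and the labels name no litters.

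Levels of different genes were compared per length, in FPKM (fragments scaled to library size and gene length), as the authors computed it. Rplp1, a protein of the acidic stalk that recruits elongation factors, had the highest level, with 904 and 866 FPKM under the wild-type label against 848 and 831 FPKM under the Foxn3KO label. Next in mean level were Rps15 with 722 FPKM and Rpl4, which lines the exit tunnel, with 556 FPKM. The median over the 77 core genes was 174 FPKM, and the quartiles were 98.9 and 277 FPKM. Messages for proteins of the same particle thus differed widely in level.

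Among the core genes the lowest mean FPKM were those of Rps10 (6.42 FPKM), Rpl24 (16.6 FPKM) and Rpl13a (26.7 FPKM). Rps10 was at 7.07 and 6.94 FPKM under the wild-type label against 5.88 and 5.80 FPKM under the Foxn3KO label. Ribosomal protein genes have many near-identical processed copies in the genome, and the way reads shared between them were counted is not given in the sources used here. Levels and small changes of single members are therefore uncertain. The table also lists 46 processed copies named as ribosomal pseudogenes, which together took 0.00415% to 0.00470% of the counts of a library, against 2.64% to 2.93% for the 90 genes.

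**Figure D1:**
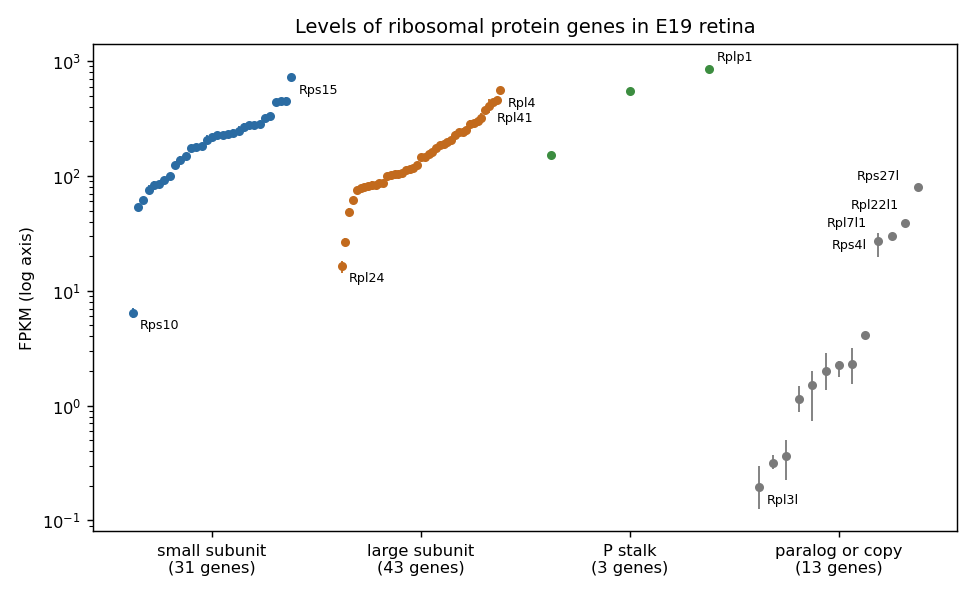
Level of each of the 90 genes in FPKM on a log axis, by class and ordered within a class; points are means over the 4 libraries and lines span the lowest to the highest library. Rps10 and Rpl24 lie below the other core genes, and the paralogs and copies run from 0.194 FPKM (Rpl3l) to 80.3 FPKM (Rps27l).

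Genotype was then compared gene by gene. Of the 87 tested genes, 7 were lower and 2 higher in the libraries labelled Foxn3KO at an adjusted p under 0.05 (edgeR quasi-likelihood test, Benjamini-Hochberg adjusted across the 17300 genes tested). These are 8.05% and 2.30% of the genes. Over all tested genes 9.66% were called lower and 12.3% higher, and over 2696 abundant tested genes (mean of 100 CPM or more) the shares were 15.1% and 19.1%. The share called lower was near that of all tested genes and below that of abundant genes, to which 74 of the 87 belong. The median log2 fold change of the 87 genes was -0.08, with 74 below 0, or 85.1% against 50.9% of all tested genes. The median was -0.00470 over all tested genes and 0.00552 over those of at least 100 CPM. The quartiles of the 87 genes were -0.10 and -0.04, a width of 0.062 against 0.187 for tested genes of at least 100 CPM. Scaled by total counts instead, 22 were called lower and 2 higher (background 11.9% and 11.1%), so 8.33% of the calls were higher in place of 22.2%, with the same number called higher.

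**Figure D2:**
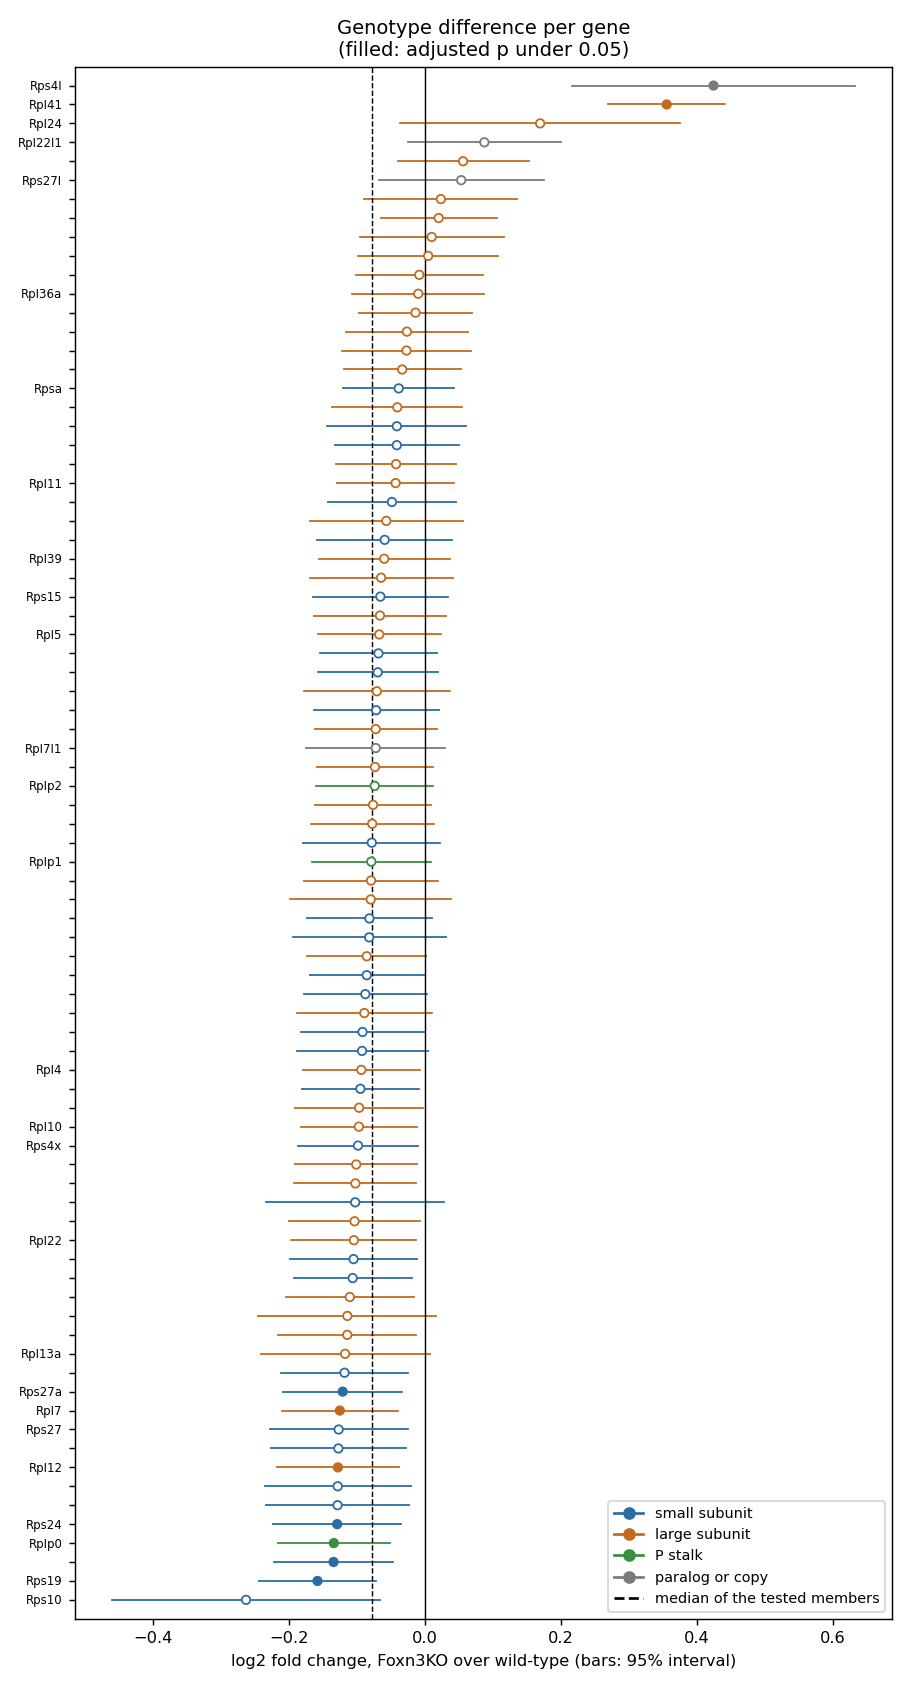
Log2 fold change of Foxn3KO over wild-type with its 95% interval for the 81 tested genes whose mean reaches 10 CPM, ordered by value and coloured by class and labelled where named in the text; filled points passed an adjusted p of 0.05. Most values lie between -0.15 and 0 around the dashed median of -0.08, and Rpl41 and Rps4l lie apart on the right.

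Rpl41 rose most clearly. It encodes the smallest protein of the ribosome, a short basic peptide of the large subunit that lies at the contact between the subunits. Its level was 427 and 415 CPM under the wild-type label against 546 and 531 CPM under the Foxn3KO label. Both Foxn3KO libraries were above both wild-type libraries, by far more than the gap between libraries of a genotype. The log2 fold change was 0.36 (SE 0.041, 95% interval 0.27 to 0.44, edgeR adjusted p = 3.73e-06), a rise of 27.9%. Leaving out each library in turn gave 0.33 to 0.38, and the gene passed in each of those fits. DESeq2 called Rpl41 (adjusted p = 2.03e-13) and no other member higher. Of the adjacent genes in RefSeq, Zc3h10 had a log2 fold change of -0.03 (edgeR adjusted p = 0.820). The pseudogene Gm9176 on the other side was not tested.

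Rps4l, which RefSeq annotates as a transcribed pseudogene and whose parent is Rps4x, was the other gene called higher. Its level was 26.3 and 35.3 CPM under the wild-type label against 42.9 and 39.7 CPM under the Foxn3KO label. The groups did not overlap, but the gap within wild-type was wider than the gap between wild-type replicate 2 and Foxn3KO replicate 2. The log2 fold change was 0.42 (SE 0.099, edgeR adjusted p = 0.00462). Leaving out wild-type replicate 1 gave 0.23 and leaving out wild-type replicate 2 gave 0.66, and DESeq2 did not call it (adjusted p = 0.198). The gene overlaps Tmtc1, which had a log2 fold change of 0.01 (edgeR adjusted p = 0.970). Rps4x itself, on the X chromosome, had a log2 fold change of -0.10 (edgeR adjusted p = 0.105).

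The small subunit list had 31 genes, all tested. By edgeR 0 were called higher (background 12.3%), with 0 at an unadjusted p under 0.05 and 0 by DESeq2 or limma-voom. Called lower were 4 (12.9%, against 9.66% of all tested genes and 15.1% of abundant genes), among them Rps19, Rps27a and Rps24. The median log2 fold change was -0.09 and all 31 values were below 0, from -0.26 to -0.04. Rps19, the gene most often mutated in Diamond-Blackfan anaemia, was at 306 and 300.5 CPM under the wild-type label against 273 and 271 CPM under the Foxn3KO label. The groups did not overlap and the libraries of each genotype lay close together. Rps19 fell by 0.16 on the log2 scale (SE 0.041, 95% interval -0.24 to -0.07, edgeR adjusted p = 0.00957), a change of -10.3%.

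Rps27a, made as a fusion with ubiquitin, was at 367 and 351 CPM under the wild-type label against 330 CPM in both Foxn3KO libraries. Rps24, another Diamond-Blackfan gene, was at 564 and 520 CPM against 503 and 488 CPM. In both genes the Foxn3KO libraries were the lower ones, and for Rps24 the gap between the wild-type libraries was larger than that between wild-type replicate 2 and Foxn3KO replicate 1. Their log2 fold changes were -0.12 and -0.13, with edgeR adjusted p-values of 0.0463 and 0.0469. DESeq2 called neither, and Rps24 had -0.07 and was not called without wild-type replicate 1. Rps27a overlaps Clhc1, which was not tested, and its neighbour Mtif2 had -0.18 (edgeR adjusted p = 0.0487). Polr3a, beside Rps24, had -0.02 and did not pass (edgeR adjusted p = 0.848). Rps10 had the lowest value of the subunit (-0.26) and an adjusted p of 0.0528. Rpsa, known also as the laminin receptor precursor, was at 715 and 706 CPM against 691 and 693 CPM, with a log2 fold change of -0.04 (95% interval -0.12 to 0.04).

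Among the 43 genes of the large subunit outside the stalk, 2 (4.65%) were called lower, Rpl7 and Rpl12, against 9.66% of all tested genes. Rpl41 (2.33%) was called higher, against 12.3%. The median was -0.07, with 36 values below 0 and 7 above. The difference between the subunits was not tested. Rpl7 was at 859 and 822 CPM under the wild-type label against 766 and 776 CPM under the Foxn3KO label. Rpl12, which sits at the base of the stalk, was at 322 and 312 CPM against 297 and 283 CPM. Both genes had no overlap between the groups. Their log2 fold changes were -0.12 and -0.13 (edgeR adjusted p = 0.0335 and 0.0402), and DESeq2 called Rpl7 but not Rpl12 (adjusted p = 0.0337 and 0.0749). Among the adjacent genes, Rdh10 and 4930444P10Rik beside Rpl7 had log2 fold changes of -0.40 and 2.46, and Slc2a8 beside Rpl12 had -0.34, all past the threshold. Lrsam1, on the other side of Rpl12, had 0.11 and did not pass (edgeR adjusted p = 0.389).

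Of the 3 stalk genes Rplp0, the protein that anchors the stalk to the ribosome, was called. It was at 960 and 938 CPM under the wild-type label against 859 and 871 CPM under the Foxn3KO label, without overlap. Rplp0 fell by 0.13 on the log2 scale (SE 0.039, edgeR adjusted p = 0.0204), and its neighbour Gcn1 had 0.19 (edgeR adjusted p = 0.0106). Pxn, on the other side of Rplp0, had -0.18 and did not pass (edgeR adjusted p = 0.0641). Rplp1 was at 453 and 434 CPM against 424 and 416 CPM, and Rplp2 at 326 and 321 CPM against 310 and 305 CPM. Neither of these passed, with log2 fold changes of -0.08 and -0.07 (edgeR adjusted p = 0.196 and 0.221).

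**Figure D3:**
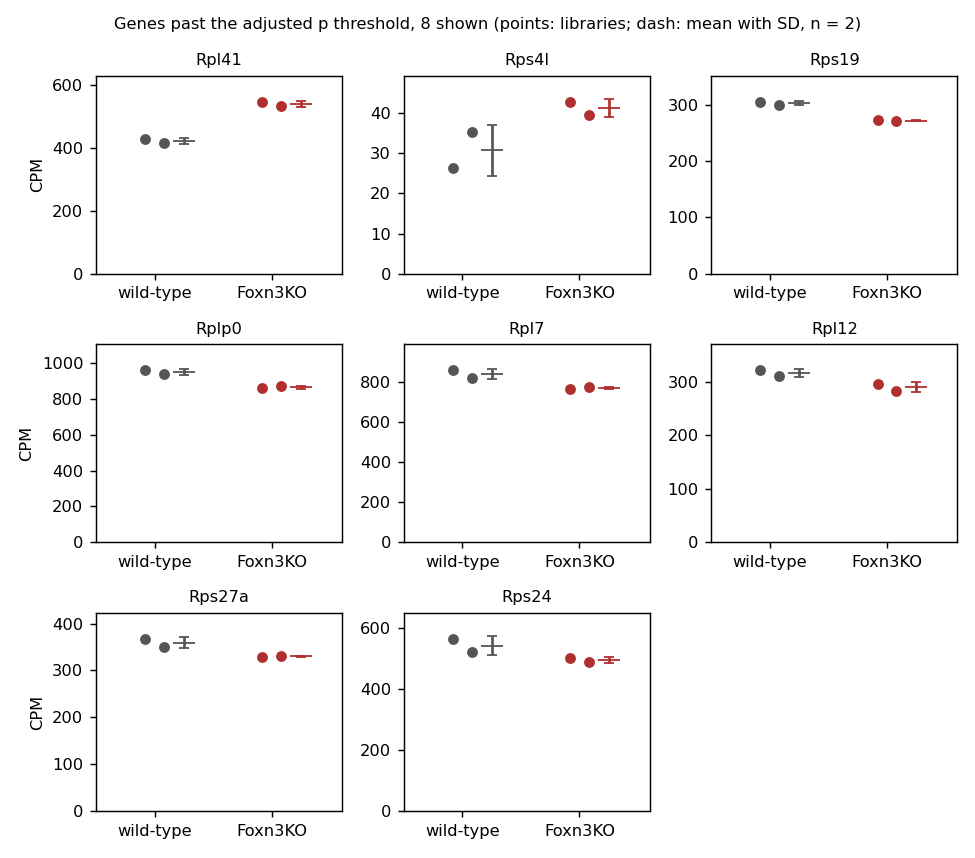
CPM of 8 of the 9 genes past the threshold, with an axis from 0 in each panel; points are libraries, and the dash with its bar is the mean with the SD (n = 2). Rpl41 goes from 421 to 538.5 CPM on average, and Rplp0, the most abundant of the 7 genes called lower, from 949 to 865 CPM.

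Rpl5 and Rpl11, which bind ribosomal RNA together and in excess inhibit Mdm2, the ligase of p53, were not called. Rpl5 was at 363 and 342 CPM under the wild-type label against 338 and 336 CPM under the Foxn3KO label. Rpl11 was at 306 and 308 CPM against 302 and 294 CPM. Their log2 fold changes were -0.07 (95% interval -0.16 to 0.02) and -0.04 (95% interval -0.13 to 0.04). Of 18 listed genes linked to Diamond-Blackfan anaemia, 2 (11.1%) were called lower and 0 higher by edgeR (background 9.66% and 12.3%). At an unadjusted p under 0.05 and by DESeq2 0 were higher too, and the median was -0.08. On the X chromosome lie 4 members. Their log2 fold changes were -0.10 for Rpl10, -0.10 for Rps4x, -0.06 for Rpl39 and -0.01 for Rpl36a, and none passed (lowest edgeR adjusted p = 0.0981). Rpl36a was at 135 and 132 CPM under the wild-type label against 135 and 131 CPM under the Foxn3KO label. Wild-type replicate 1, which carries Xist, was the highest library for all 4 genes. For Rpl36a it was so by little, at 135.5 CPM against 134.9 CPM in Foxn3KO replicate 1. It was also the highest library for 69 of the 74 members of at least 100 CPM. Rps4x was at 763 and 724 CPM under the wild-type label against 707 and 683 CPM under the Foxn3KO label.

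Of the 13 paralogs and copies 10 were tested, and Rps4l was the single call; edgeR called 0 lower, with 0 at an unadjusted p under 0.05 and 0 by DESeq2. Their median was 0.07, with 6 values above 0 and 4 below. Rps27l, a paralog of Rps27 and a known p53 target, had 34.1% of the FPKM of its parent, and Rpl22l1, which can replace Rpl22, had 38.3%. The log2 fold changes were 0.05 for Rps27l and -0.13 for Rps27, 0.09 for Rpl22l1 and -0.10 for Rpl22, and none of these passed (edgeR adjusted p = 0.562, 0.0699, 0.271 and 0.1005). Rpl7l1, which takes part in assembly of the large subunit, had 10.1% of the FPKM of Rpl7 and a log2 fold change of -0.07 (edgeR adjusted p = 0.326). The other copies were low. Rpl35rt had 3.31%, Rpl36al 2.89%, Rpl37rt 1.08%, Rps23rg1 0.977%, Rps27rt 0.856% and Rpl32l 0.348% of the FPKM of the gene they copy, and none passed. Rpl3l, known from muscle, had 6 to 11 counts in a library, and Rps3a2 and Rps3a3 had 4 to 10.

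The shift of the genes as a group was then set beside the gap between libraries of the same genotype. Wild-type replicate 2 had a lower CPM than wild-type replicate 1 in 84 of the 87 genes, with a median log2 ratio of -0.07, while the other tested genes had a median of -0.00114. Foxn3KO replicate 2 was lower than Foxn3KO replicate 1 in 73 of 87, with a median of -0.04. Ribosomal protein messages therefore differed together between embryos of a genotype, by about as much as between genotypes. Against wild-type replicate 1 the medians were -0.09 for Foxn3KO replicate 1 and -0.13 for Foxn3KO replicate 2. Against wild-type replicate 2 they were -0.01, with 49 of 87 lower, and -0.06, with 71 of 87 lower.

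**Figure D4:**
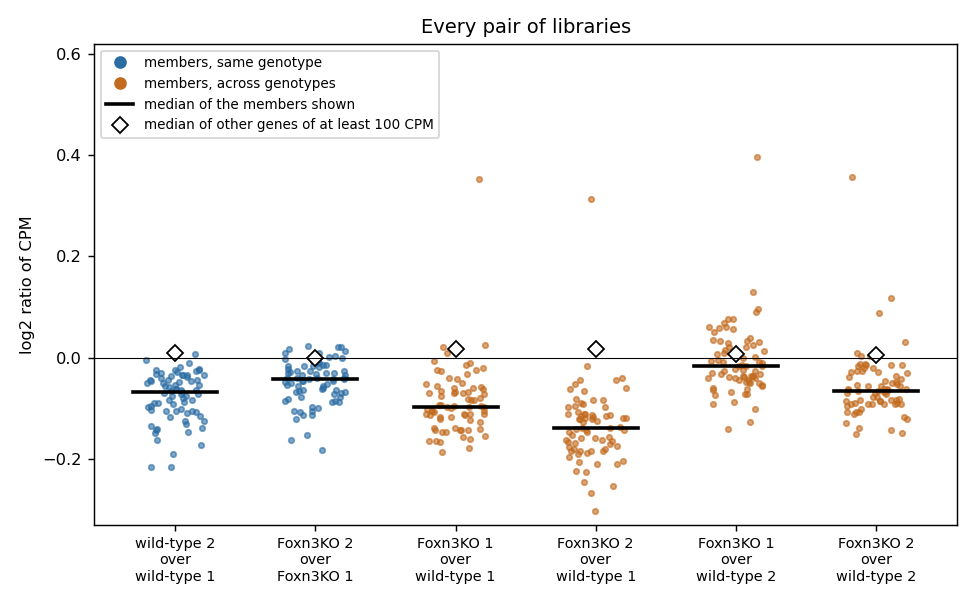
Log2 ratio of CPM (plus 0.1) for each of the 6 pairs of libraries over the 74 genes whose mean reaches 100 CPM; bars are their medians and diamonds the medians of 2622 other genes of that level. The medians within a genotype (-0.07 and -0.04) lie inside the range of those across genotypes (-0.14 to -0.02); the single point above 0.3 in each pair across genotypes is Rpl41.

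Among the 74 genes of at least 100 CPM, 69 were highest in wild-type replicate 1 and 59 were lowest in Foxn3KO replicate 2. Both libraries labelled Foxn3KO were below both labelled wild-type in 48 of the 87 genes (55.2%), against 30.5% of all tested genes and 33.8% of those of at least 100 CPM. The opposite order held for 7 of the 87, against 29.9%. As a share of all counts, without any scaling factor, the 90 genes took 2.93% and 2.77% under the wild-type label against 2.71% and 2.64% under the Foxn3KO label. The means were 2.85% ± 0.106 and 2.67% ± 0.0543 (SD, n = 2 each). The difference of -0.177 percentage points was larger than the SD of either group, but the gap between the wild-type libraries alone was almost as wide. An exact permutation test of 2 against 2 cannot pass the threshold, so none was made.

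How many genes were called depended on which libraries were used. Leaving out wild-type replicate 1, the library that stands apart, 7 genes were called lower and 5 higher (background 10.9% and 13.4%), and the median was -0.04. The 5 were Rpl41, Rps4l, Rpl22l1, Rpl24 and Rpl30. Without wild-type replicate 2, 56 were called lower and 2 higher (background 13.1% and 15.6%), and the median was -0.11. Without Foxn3KO replicate 1 and without Foxn3KO replicate 2, edgeR called 0 lower, with 12 and 1 lower at an unadjusted p under 0.05 (background called lower 4.76% and 4.69%), and 2 higher (background 8.39% and 8.34%). The medians in these fits were -0.09 and -0.05, and Rps19 had -0.16 and -0.15 against -0.16 with all libraries. These fits take the spread of the lone library of a group to be that of the other group. By contrast, Rpl41 and Rps4l were called higher in each of the 4 fits. The 7 genes called lower kept log2 fold changes below 0 in each of them, and none of the 7 was called in the fits without a Foxn3KO library.

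With all 4 libraries, DESeq2 called 4 lower and 1 higher, where its background was 5.16% and 8.91%. The earlier edgeR fit called 2 lower and 2 higher (background 9.48% and 12.1%), and a fit with the replicate block 16 and 2 (background 10.9% and 13.5%). RLE factors, TMM factors made without the members, limma-voom, no filter, and a filter of 10 counts in every library each called 7 lower and 2 higher. Their backgrounds for lower calls were 9.55%, 9.67%, 9.56%, 9.18% and 10.8%, and for higher calls 12.4%, 12.2%, 12.4%, 11.7% and 13.2%. The number of genes called lower hence depended on the tool, and Rpl41 was called by each.

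**Figure D5:**
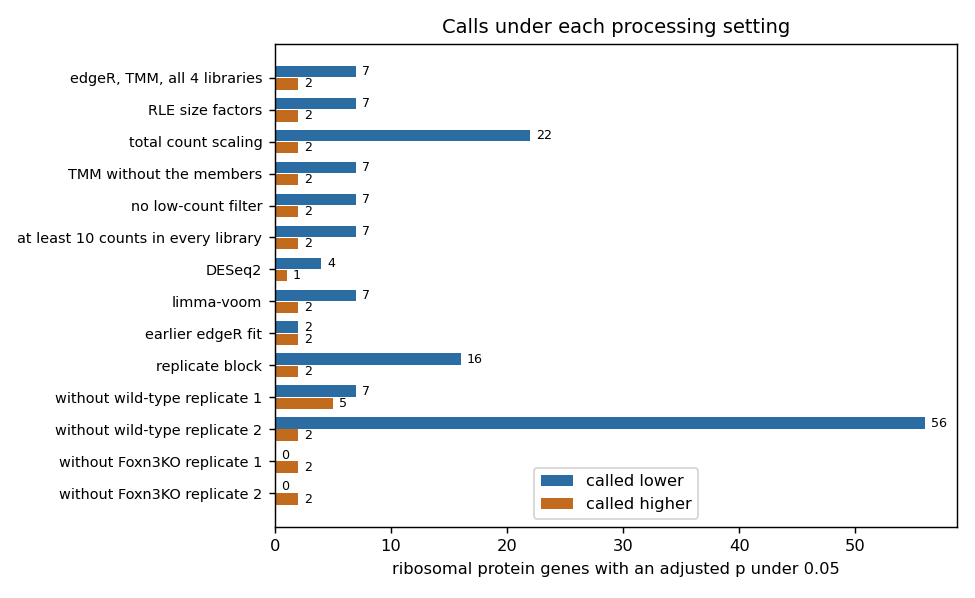
Number of ribosomal protein genes called lower and higher in Foxn3KO under each processing setting. Calls lower run from 0 (either Foxn3KO library left out) to 56 (wild-type replicate 2 left out), and calls higher from 1 to 5.

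Other genes of the ribosome and of its production were read from lists chosen for the purpose, with earlier results of these data known. Genes of ribosomal proteins that the symbol rule leaves out lay in the range of the small subunit. Fau, made as a fusion with a ubiquitin-like protein, had a log2 fold change of -0.15 and passed (edgeR adjusted p = 0.0167). Rack1, a scaffold on the small subunit, had -0.11 and did not pass (edgeR adjusted p = 0.0528). Of 20 elongation factors and other TOP messages, 2 were called lower, Eif2s3x and Tpt1, and Vim was called higher, with a median of -0.05. The share called lower was near the 9.66% of all tested genes, and the share called higher was below their 12.3%. Tpt1, a growth-related TOP message, had -0.12 (edgeR adjusted p = 0.0314). Eif2s3x, an X-linked initiation factor gene, was at 67.0 CPM in wild-type replicate 1 and at 41.4 to 43.7 CPM in the other 3 libraries.

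The lists of genes that make ribosomes had medians above 0. Their calls are to be read against the background given above, 12.3% higher and 9.66% lower by edgeR (19.1% and 15.1% for abundant genes) and 8.91% and 5.16% by DESeq2. Of 22 genes of RNA polymerase I transcription, 7 (31.8%) were called higher and 1 lower (4 and 1 by DESeq2), with a median of 0.10. Tcof1, a nucleolar cofactor of the polymerase, had a log2 fold change of 0.37 (edgeR adjusted p = 0.000385). Of 91 tested assembly and ribosomal RNA processing factors, 16 (17.6%) were called higher and 3 lower (9 and 0 by DESeq2, with 4 lower at an unadjusted p under 0.05), with a median of 0.04. The share called higher lay between the background over all tested genes and that over abundant genes. Between the wild-type libraries, 59 of these 91 genes were lower in replicate 2 than in replicate 1, with a median log2 ratio of -0.04. Against wild-type replicate 1 the medians were 0.03 for Foxn3KO replicate 1 and 0.02 for Foxn3KO replicate 2. Against wild-type replicate 2 they were 0.05 and 0.06. Rrp12, an export factor of the subunits, rose from 28.1 to 53.6 CPM on average, a log2 fold change of 0.93 (edgeR adjusted p = 3.14e-08). Rrp7a and Gar1, factors of ribosomal RNA processing and modification, had 0.69 and 0.44 (edgeR adjusted p = 5.33e-08 and 7.12e-06).

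Among 79 tested mitochondrial ribosome genes, 6 (7.6%) were called higher and 0 lower by edgeR, against 12.3% and 9.66% of all tested genes. At an unadjusted p under 0.05, 2 were lower. DESeq2 called 0 in either direction, with 6 higher and 0 lower at an unadjusted p under 0.05. The median was 0.05, with 22 values below 0. The smallest p-values were those of Mrpl58, Mrpl36 and Mrps27, with log2 fold changes of 0.22, 0.24 and 0.23. In wild-type replicate 2 against replicate 1, 56 of the 79 genes were lower, with a median log2 ratio of -0.05. In Foxn3KO replicate 1 against wild-type replicate 2, 20 of the 79 were lower, with a median of 0.07. Of 21 genes of mTORC1 and its targets, 3 (14.3%) were called higher and 2 (9.52%) lower (background 12.3% and 9.66%). The median was 0.02. Mtor itself was higher, at 0.27 (edgeR adjusted p = 0.000918) and Eif4a2 had -0.20 (edgeR adjusted p = 0.00549). Of 19 tested p53 targets, 4 (21.1%) were called lower and 0 higher by edgeR (background 9.66% and 12.3%). At an unadjusted p under 0.05, 4 were higher, and DESeq2 called 0 higher. The calls included Trp53inp1 with -0.29 and Ccng1 with -0.22, and the median over the list was -0.01.

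The ribosomal protein messages are short: the median member of at least 100 CPM lay at the length percentile 5.12 of genes of that level. The 305 other genes of that level that were no longer than the upper quartile of the members' lengths had a median log2 fold change of 0.06, with 28.9% below 0. Between the wild-type libraries these short genes had a median log2 ratio of -0.02. The part of message length in the result was not tested.

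In the authors' deposited table, 5 of the 85 members with an adjusted p were under 0.05, among them Rpl41, Rps19, Rplp0 and Rpl7. The share of all genes under 0.05 in that table is not reported here. The DESeq2 fit made here called 5.16% of all tested genes lower and 8.91% higher. The authors' deposited table gives Rpl41 0.35 on the log2 scale (adjusted p = 2.01e-13) and Rps19 -0.15 (adjusted p = 0.0114).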

How the data were processed

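Retinal RNA was measured in 4 libraries, 2 per genotype, grouped by their labels. The authors deposited a single table with raw counts per gene and library, which per the file headers also holds FPKM values, a mean normalized signal, log2 fold changes and p-values. The submitters' processing notes name the build mm39 and DESeq2; the aligner, the counting tool and the use of strand and molecular identifiers are not given in the sources used here. FPKM served only to compare levels between genes and to rank lengths.

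From 18472 rows a repeated identifier was dropped, leaving 18471 genes. Low counts were removed with filterByExpr, leaving 17300. Scaling used TMM factors. The test was the two-sided quasi-likelihood test of edgeR (version 4.0.16, with its current fit, under R version 4.3.3), with genotype as the only term and Benjamini-Hochberg adjustment over all tested genes. CPM are counts over TMM-adjusted library sizes, and ratios of libraries use log2(CPM + 0.1). Each group has 2 libraries, and p-values rest on the spread between these, moderated by the spread of the other genes. Genes were tested singly, so p-values do not account for a shift that members share between libraries. The procedure was tested on simulated counts in which genes varied independently and the changes were far larger than those of most members. That test does not show how small shifts shared by many genes are called. The members and gene lists were chosen with earlier results of these data known. Genes named were the stalk genes, Rpsa, Rpl5, Rpl11, X-linked members, copies with their parents, the 5 calls of smallest p per direction, the 3 highest and lowest core genes in FPKM, and up to 3 of smallest p per list. Rps27a and Rps24, the remaining calls, were named after their values were seen; results of some genes are not reported by name here. Alternatives were RLE and total count scaling, TMM without the members, 2 other filters, DESeq2 1.42.0, limma-voom (limma 3.58.1), the earlier edgeR fit, a replicate block, and each library left out in turn. A fit of 3 libraries takes the lone library of a group to vary like the other group. Chromosomes and neighbours came from RefSeq on GRCm38.p6, a build other than that of the counts. Figures were drawn with matplotlib 3.10.9.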

Additional observations from a re-analysis of the deposited data

How the results depend on the processing

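The 2 calls higher became 1 under DESeq2, which left out Rps4l, and 2 to 5 when a library was left out. The 7 calls lower became 22 under total count scaling, 4 under DESeq2, 2 under the earlier edgeR fit, 16 with the replicate block (where 10.9% of all tested genes were called lower) and 0 to 56 when a library was left out. They stayed at 7 under RLE factors, TMM without the members, both other filters and limma-voom, with all 9 calls shared. The median log2 fold change ranged from -0.0978 (total count scaling) to -0.0747 (limma-voom) over settings with all 4 libraries, was -0.0790 for the core genes alone, and ranged from -0.1106 to -0.0356 when a library was left out, all below 0.

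The labels do not say whether the replicate numbers pair the samples. The correlation of replicate differences between the groups was -0.00825 over 17300 genes and -0.0982 over the 87 members. Over the members it does not register a shift that all of them share. Replicate 2 was lower than replicate 1 in 84 of the 87 under the wild-type label and in 73 under the Foxn3KO label. Whether the replicates are paired therefore cannot be told. With the replicate block, 9 of the 9 calls were shared.

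Among single genes named, Rpl35 had -0.0156 under total count scaling against 0.0049, and did not pass in either. Leaving out a library changed the sign of 8 genes that were not called with all libraries: Rpl35 (-0.0479 to 0.0585), Rpl35rt (-0.0945 to 0.0737), Rpl36a (-0.0319 to 0.0152), Rpl37rt (-0.433 to 0.333), Rps15 (-0.131 to 0.00650), Rps27l (-0.0127 to 0.125), Rpl3 (-0.0282 to 0.00377) and Rpl37 (-0.173 to 0.0107). The cause was not tested. The untested copies had 4 to 11 counts in a library, under the filter on low counts.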
